A study of Gallus gallus with 6 samples.

Results

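The genes described here build connective tissue and cartilage but are not collagens: 45 genes for elastic fibres, small leucine-rich proteoglycans, adhesive glycoproteins, basement membrane, matrix proteinases and their inhibitors, fibroblast proteins and the special matrix of cartilage. Of the 45, 44 were found on the array through a probe set with 1 gene symbol, out of 13009 genes found in this way. CHAD has no such probe set in the annotation used. Where several probe sets measure 1 gene, the one with the highest mean signal over the arrays stands for it. The 44 genes were divided by role into 9 cartilage genes and 35 others. The others were divided further by their measured values into 6 adipose-high genes, defined as at least 4-fold brighter on adipose tissue than on each of the other arrays, and 29 more. Every fold and log2 difference given here is of signal + 13, which damps ratios of faint signals, while levels are plain signals.

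The study hybridised 6 Affymetrix chicken arrays. Adipose tissue and liver have 1 array each, and the other 4 carry mixtures labelled mix 1 to mix 4. The birds were male Arbor Acres broilers, slaughtered 49 days after hatching and raised on a commercial diet of corn and soybean, and the labels name no treatment. The labels say that 21 tissues were collected, but not which of them a mix holds, nor in what shares, nor whether a sample holds 1 bird or several. A mix dilutes every tissue in it, so a gene brighter on adipose than on a mix may still be as bright in 1 tissue of that mix. With whole tissues, fewer cells of a type and less RNA per cell cannot be told apart.

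Connective tissue is laid down mainly by fibroblasts, which secrete a scaffold of fibres and the proteins that space, glue and remodel it. Elastic fibres consist of a core of crosslinked elastin in a sheath of fibrillin microfibrils and give stretch to vessels, lung and skin. Cartilage is made by chondrocytes, whose matrix of aggrecan bound to hyaluronan by link protein holds water under load, and matrilins and COMP connect that matrix to collagen fibrils. In fat, the matrix surrounds each adipocyte and forms the sheaths of vessels and lobules.

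The arrays carried genes of the tissues their labels name. The 6 hepatocyte markers summed to a signal of 73519 on liver, 176 on adipose and 584 to 10045 on the mixes, with all 6 brightest on liver. Of the 6 adipocyte markers, 5 were brightest on adipose, and they summed to 52764 there against 2472 to 7177 on the mixes. The exception was ADIPOQ, the adipocyte hormone adiponectin, at 4236 on adipose and 4824 on mix 1. Adipose also led in markers of endothelium and lung. All 5 endothelial markers were above all 4 mixes (summed signal 14388 against 1572 to 2375), as were the 4 lung markers measured (16066 against 647 to 1379). The lung regulator NKX2-1 gave 102 on adipose and at most 60.9 on the mixes. Smooth muscle markers went another way. Of the 5 measured, 4 were brightest on mix 1 (summed signal 41480 against 5879 on adipose), with ACTA2 the exception. These values stand beside every adipose difference below, and their part in those differences was not tested.

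The median signal of all probe sets was 27 on liver and 44.8 to 58.1 on the other arrays. On the scale used for all differences, log2(signal + 13), the 11626 genes tested lay at a median of 0.04 on adipose and of -0.75 on liver relative to the mean of the mixes. Differences from the mixes were tested with limma over 25958 probe sets. The error term is the scatter of the 4 mixes, which differ in content and so are no true replicates, and no spread of adipose or of liver itself enters. For adipose, 0 probe sets passed at an adjusted p under 0.05 (0% of those tested, with 1904 or 7.33% at an unadjusted p under 0.05). For liver 13 passed, all higher on liver (0.0501%), and 0 were probe sets used for the 44 genes. At an unadjusted p under 0.05 there were 11 of the 44 genes on adipose and 17 on liver, where 19.9% of all probe sets reached that level. Adipose and liver share the same mixes as their reference. Values are therefore given as measurements, and no gene below is called changed except where a setting is named.

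**Figure D1:**
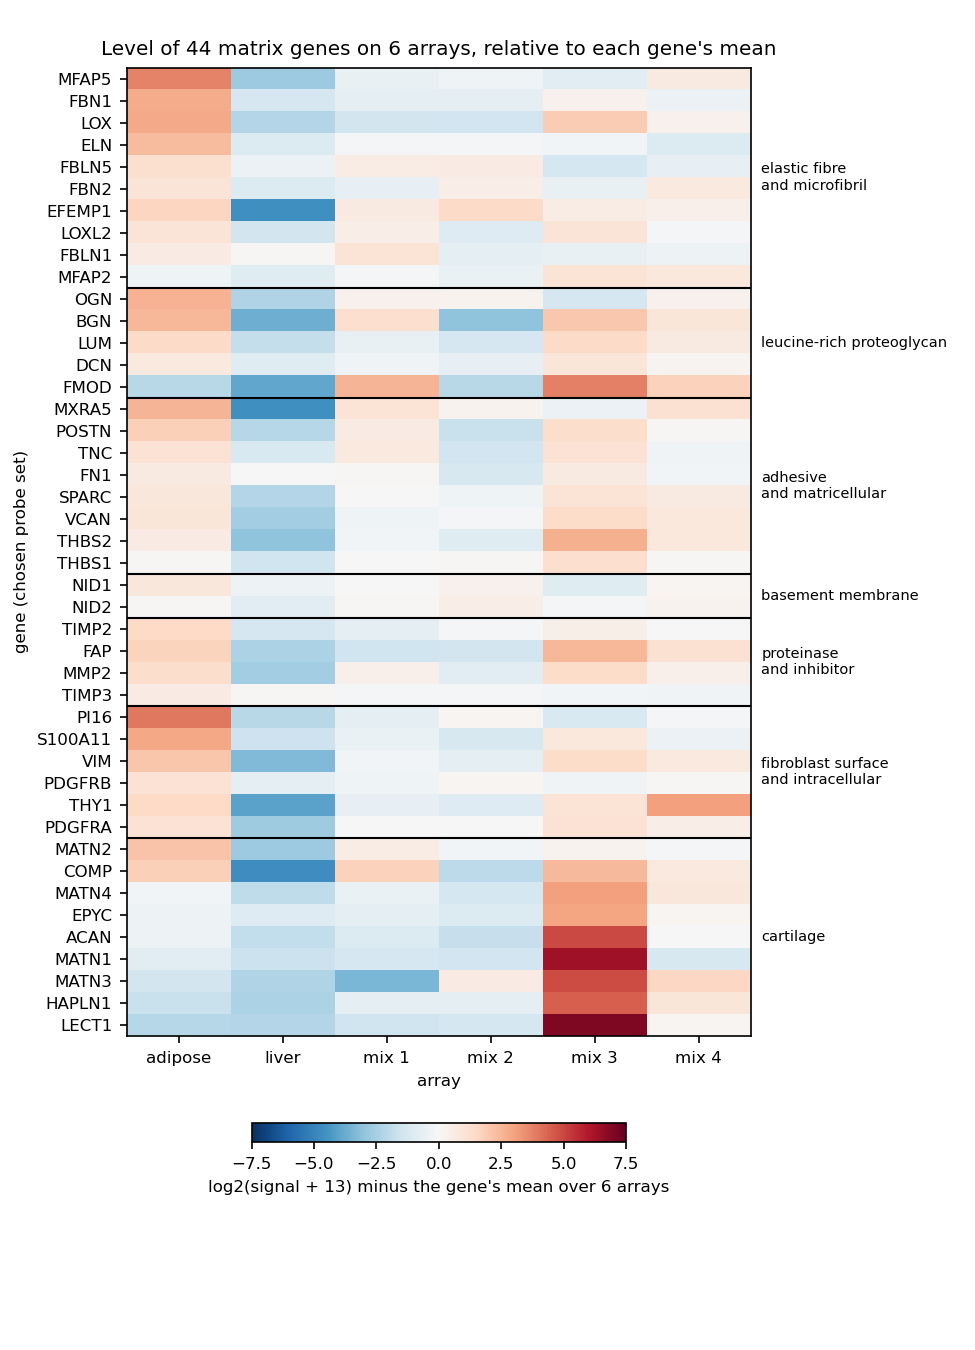
Level of each of the 44 genes on the 6 arrays, as log2(signal + 13) minus that gene's mean over the arrays, grouped by role with lines between groups. The liver column is the lowest for 36 of the 44 genes, adipose is the brightest array for 22, and 8 of the 9 cartilage genes are brightest on mix 3.

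Adipose was the brightest of the 6 arrays for 22 of the 44 genes and mix 3 for 19, while mix 1 (FBLN1), mix 2 (NID2) and mix 4 (THY1) led in 1 gene each and liver in 0. Over all genes tested, adipose was brightest in 23.7%, mix 3 in 13.1%, mix 1 in 19.5%, mix 2 in 6.49%, mix 4 in 30.4% and liver in 6.83%. A lead of at least 4-fold over each other array was seen for 6 of the 44 genes on adipose, the adipose-high genes by definition. Such a lead was seen for 7 on mix 3, and over all genes tested for 0.998% on adipose and 0.525% on mix 3. It was seen for 0 on liver, mix 1, mix 2 and mix 4, where 1.35%, 1.57%, 0.645% and 3.09% of all genes tested had such a lead. The same 22 genes lay above all 4 mixes on adipose, 3 lay below all of them and 19 lay within their range, against 24.9% above and 17% below over all genes tested. The 44 genes were chosen with earlier results of these data known, so their counts beside these shares are a description. With the cartilage genes apart, 21 of 35 lay above and 1 below, with a median difference of 1.02. The 6 adipose-high genes count as above by their definition. Of the other 29 genes outside cartilage, 15 lay above and 1 below, with a median difference of 0.89. The counts for the 44 genes were 16 above and 4 below with quantile scaling, and 18 and 5 both with trimmed-mean and with spike-in scaling. Over all genes tested the shares then stood at 18.9% above and 22.3% below (quantile), 17.1% and 26.9% (trimmed mean) and 17.5% and 24.5% (spike-ins). Single mixes were also compared over the 35 genes outside the cartilage group. Their median on adipose was 0.50 above mix 3, with 24 of 35 genes higher on adipose. It was 0.99 above mix 4 (29 genes higher), 1.21 above mix 1 (31 genes) and 1.89 above mix 2 (32 genes). The 6 adipose-high genes are in each of these 4 counts by their definition and also enter the medians of the 35. Over all genes tested the corresponding medians were 0.21, -0.09, 0.03 and 0.17. Of these 11626 genes, 7261 were higher on adipose than on mix 3, 5240 than on mix 4, 6028 than on mix 1 and 6884 than on mix 2. Genes went both ways against mix 3, with 8 at least 4-fold higher on adipose and 2 at least 4-fold lower, against 7 and 1 for mix 4. The 6 adipose-high genes are in both counts of higher genes by their definition. Over all 11626 genes tested the counts were 522 higher and 358 lower against mix 3, and 324 and 1026 against mix 4. Without regard to sign, the median difference of the 35 genes was 1.06 for mix 3 and 1.11 for mix 4, against 0.52 and 0.55 over all genes tested.

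The 6 adipose-high genes comprise 3 of the elastic fibre (MFAP5, FBN1 and ELN), 1 leucine-rich proteoglycan (OGN) and 2 fibroblast proteins (PI16 and S100A11). The grouping used these adipose values, so the height of the group is a description. The adjusted p-values are those of the fit over all probe sets. Over all genes tested, 0.998% met the same 4-fold rule on adipose. PI16, a secreted peptidase inhibitor that marks fibroblasts of the vessel sheath in the mouse, gave a signal of 2198 on adipose. Mix 1 to mix 4 gave 76.8, 149, 51.6 and 117, and liver 21.4. Adipose stood 13.6-fold above the next array, mix 2, the widest margin of the 6 by the probe sets used. With probe sets averaged its margin was 2.32 on the log2 scale, under the 3.26 of MFAP5, and its difference from the mixes was 2.77. Its other probe set gave 126 on adipose and at most 63.4 elsewhere. By the probe set used, the log2 difference from the mixes was 4.39 (SE 0.59, adjusted p = 0.222), the smallest adjusted p among the 44 genes on adipose.

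MFAP5 encodes a glycoprotein attached to fibrillin microfibrils. Adipose gave 4606, liver 40.3 and the mixes 227, 274, 189 and 556, a difference of 3.95 (SE 0.63, adjusted p = 0.259). Its other probe set gave 3544 on adipose and 137 to 302 on the mixes, so the same array stood out by both (4.28). FBN1, the main fibrillin of adult microfibrils, gave 544 on adipose, 21.4 on liver and 38.1, 36.2, 90.1 and 46.9 on the mixes (3.15, SE 0.53, adjusted p = 0.274). On mix 1 and mix 2 it was under 44.1, the filter for testing, so this difference has no firm size. Adipose was also the brightest array by both other probe sets of FBN1, at smaller differences of 1.98 and 1.58.

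ELN, the elastin core itself, gave 627 on adipose, 47.9 on liver and 106, 104, 96.5 and 49.1 on the mixes. Its difference was 2.70 (SE 0.50, adjusted p = 0.301), with mix 4 the faintest of the mixes. OGN, also called osteoglycin, gave 1849 on adipose against 357, 347, 113 and 361 on the mixes and 50.9 on liver (2.73, SE 0.72, adjusted p = 0.423). Here mix 3 was the faintest of the mixes, the reverse of its place in most of the other proteoglycans. S100A11, a calcium-binding protein of many cell types, gave 7456 on adipose, 331 on liver and 694, 422, 1707 and 709 on the mixes (3.25, SE 0.74, adjusted p = 0.365). Its margin of 4.34-fold over mix 3 put it just inside the 4-fold rule. MATN2, at 2.94-fold over mix 1, was the next gene outside it. With quantile scaling OGN and S100A11 came to under 4-fold, as did S100A11 with trimmed-mean scaling and FBN1 when all probe sets of a gene were averaged.

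**Figure D2:**
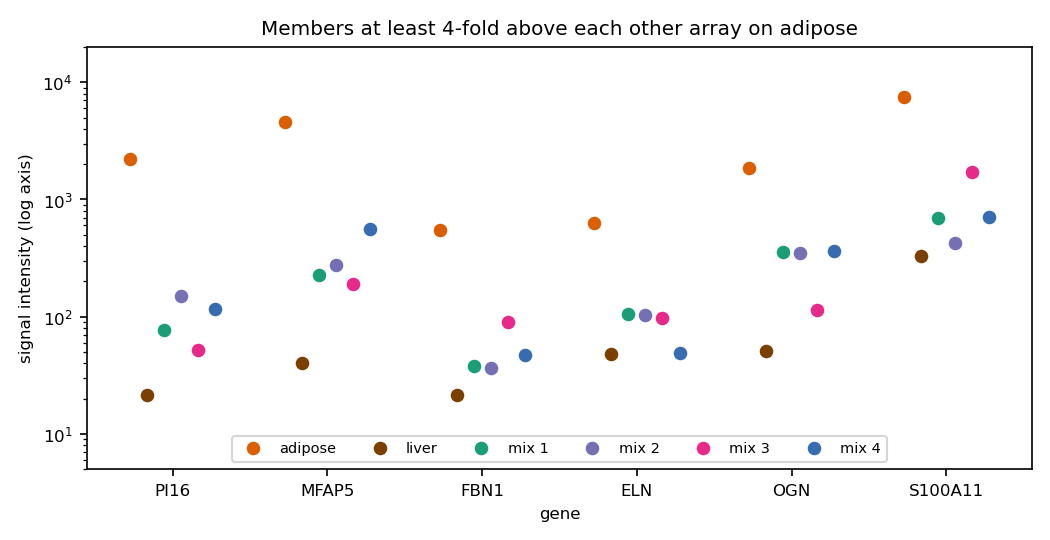
Signal intensity on a log axis of the 6 adipose-high genes on each of the 6 arrays, 1 point per array. Adipose lies apart from the other 5 arrays in each gene, from PI16 (2198 against at most 149) to S100A11 (7456 against at most 1707), and liver is the faintest array for all 6.

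Among the other elastic fibre genes LOX, the enzyme that crosslinks elastin and collagen, was high on 2 arrays. It gave 1335 on adipose and 713 on mix 3, against 225 on mix 4, 59 and 56.3 on mix 1 and mix 2, and 28.4 on liver. Its difference of 2.98 thus came with an SE of 1.37 (adjusted p = 0.757). FBLN5, a fibulin that elastic fibres need for their assembly, gave 208 on adipose, 132 and 134 on mix 1 and mix 2, and only 27.1 and 50.9 on mix 3 and mix 4. It was therefore low on the mix on which LOX was high. FBN2, the fibrillin most abundant in embryonic microfibrils, gave 158 on adipose and 43.8 to 133 on the mixes (0.95, SE 0.67). LOXL2, a relative of LOX, was at 456 on adipose and 451 on mix 3.

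EFEMP1, or fibulin-3, gave 3227 on adipose and 2792 on mix 2, with 1370 to 1651 on the other mixes. FBLN1 was the only elastic fibre gene led by mix 1, at 1274 against 956 on adipose and 374 to 476 on the other mixes. MFAP2, like MFAP5 a microfibril-associated glycoprotein, was brightest on mix 3. It gave 108 on adipose, within the mixes, where mix 3 and mix 4 gave 295 and 247 and mix 1 and mix 2 gave 127 and 95 (-0.63, SE 0.68). In all, adipose exceeded all 4 mixes in 8 of these 10 genes (24.9% over all genes tested) and was below all of them in 0 (17%), with a median difference of 1.16. Of the 8, MFAP5, FBN1 and ELN are adipose-high and so lay above by definition. The lead of LOXL2 over mix 3 was 1.01-fold.

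The small leucine-rich proteoglycans bind collagen fibrils and limit their width. DCN, or decorin, was bright on every array: 9413 on adipose, 3007 on liver, 4660, 3681, 10557 and 6563 on the mixes. LUM, or lumican, gave 5291 on adipose and 5225 on mix 3, with 1314, 797 and 3020 on mix 1, 2 and 4 and 547 on liver. BGN gave 1705 on adipose, 1235 on mix 3, 712 on mix 1, 567 on mix 4, and only 24.2 on mix 2 and 11.3 on liver. A further probe set annotated to BGN read the opposite way, with 1.0 on adipose, 725 on mix 3 and 385 on mix 4 (-3.14), while another had the same direction as the first (957 on adipose, 2.15). The adipose value of BGN thus depends on the probe set. FMOD, or fibromodulin, a proteoglycan of tendon and cartilage, was the one gene of this group below all 4 mixes on adipose. It gave 59.9 there and 8 on liver, against 4355 on mix 3, 1811 on mix 1, 1035 on mix 4 and 61.2 on mix 2, which was nearly as low as adipose. The difference of -3.61 (SE 2.10, adjusted p = 0.853) was the lowest of the 44 genes.

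Several of these genes sit side by side in the chicken genome, so neighbours could be compared array by array. In the RefSeq gene order of the GRCg7b assembly EPYC, KERA, LUM and DCN follow each other directly. EPYC, the epiphycan of growing cartilage, gave 198 on mix 3 and at most 18.2 elsewhere. KERA, the keratocan of cornea, was faint on all 6 arrays (at most 16.7), while LUM and DCN were bright on adipose and mix 3 alike. FMOD, PRELP and OPTC form another such run. On adipose FMOD lay below all 4 mixes, whereas OPTC (583 against 4.7 to 164) and PRELP (111 against 38.1 to 63.2) lay above all of them. In the run of ECM2, BGN, OMD and OGN, the 3 genes measured all lay above all 4 mixes on adipose, with ECM2 at 1052 against 63.1 to 763. OGN is adipose-high and so lay above by definition. In human the gene between ECM2 and OMD is asporin, ASPN, and biglycan lies on the X chromosome. The symbol BGN is kept here as the annotation gives it.

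**Figure D3:**
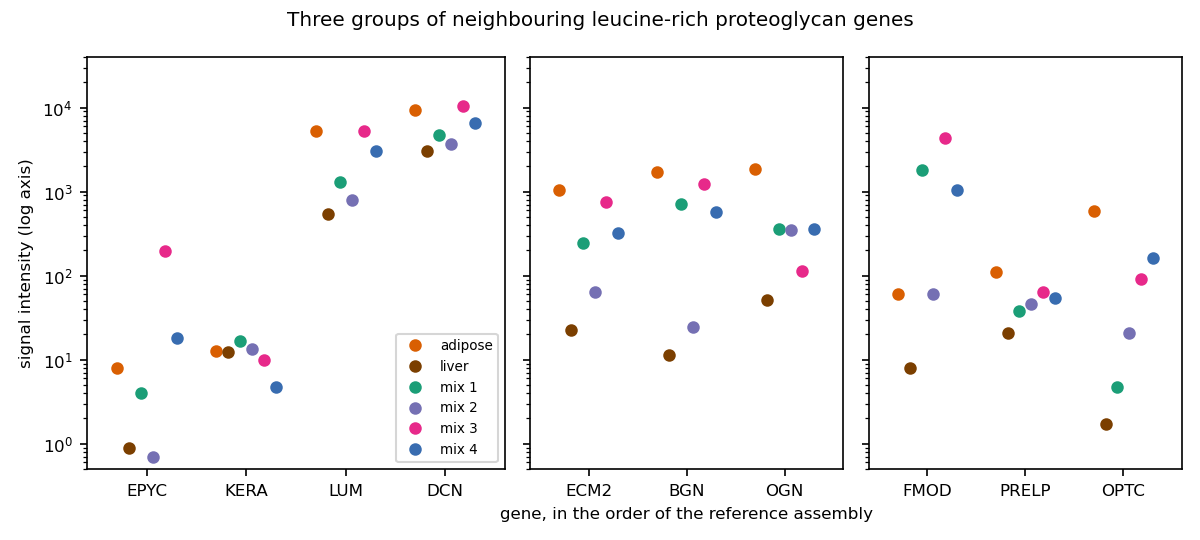
Signal intensity on a log axis of neighbouring leucine-rich proteoglycan genes in 3 runs, in their order in the assembly, with 1 point per array (OMD, between BGN and OGN, has no probe set in the annotation). FMOD is faint on adipose (59.9) where its neighbour OPTC is brightest there (583), and EPYC exceeds 18.2 only on mix 3.

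Adhesive and matricellular proteins, which link cells to fibres, mostly had their highest values on adipose and mix 3. FN1, the fibronectin that cells grip through integrins, was as bright on mix 3 (10204) as on adipose (10148), with 2735 to 6693 on the other mixes. SPARC, which binds collagen during its assembly, gave 13158 on adipose, 14759 on mix 3, 11508 on mix 4 and 5756 to 6895 on mix 1 and mix 2. POSTN, or periostin, gave 9174 on adipose and 6513, 3965, 2752 and 828 on mix 3, 1, 4 and 2, with 593 on liver (1.72, SE 1.06), but by its other probe set mix 3 was brighter (1554 against 1251). TNC, or tenascin-C, gave 405 on adipose and 401 on mix 3, with 304, 58 and 147 on mix 1, 2 and 4 and 74 on liver.

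MXRA5, a secreted adhesion protein, had the largest difference from the mixes in this group: 2239 on adipose, 771, 453, 269 and 817 on the mixes and 2.8 on liver (2.06, SE 0.69, adjusted p = 0.571). Mix 3 was the faintest mix for it. The thrombospondins of this group, THBS1 and THBS2, were instead brightest on mix 3. THBS4, a thrombospondin outside the group, was fainter there than on the other mixes (16.5 against 67.8 to 94.9). THBS2 gave 780 on mix 3 and 181 on adipose, and THBS1 gave 225 and 89.7. THBS1 differed little among the remaining mixes (84.8 to 91.8). VCAN, a large hyaluronan-binding proteoglycan, gave 339 on mix 3, 241 on adipose, 228 on mix 4 and about 100 on the others (97.1 and 113). In this group adipose exceeded all 4 mixes in 3 of 8 genes (24.9% over all genes tested) and was below all of them in 0 (17%), with a median of 0.69. For 1 of the 3, TNC, the lead over mix 3 was 1.01-fold.

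The nidogens, which join laminin to collagen IV in basement membranes, both had mix 3 as their faintest mix by the probe sets used. So did OGN, PI16, MFAP5, FBLN5 and MXRA5. By its other probe set PI16 had mix 3 as its brightest mix (63.4), and MFAP5 had mix 2 as its faintest (137 against 143 on mix 3). By 1 other probe set of NID1 mix 4 was the faintest (118 against 121 on mix 3). NID1 gave 2834 on adipose, 1245 on liver, 1981, 1791 and 1556 on mix 2, 4 and 1, and 842 on mix 3, and adipose was brightest by all 3 of its other probe sets. NID2 varied least with the array in this pair, with 300 on adipose, 163 on liver and 267 to 411 on the mixes.

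Of the proteinases, MMP2, which cuts denatured collagen, likewise had its highest values on mix 3 (6876) and adipose (6763), with 3422, 1481 and 3540 on mix 1, 2 and 4 and 427 on liver. FAP, a surface peptidase of activated fibroblasts, gave 1079 on mix 3, 605 on adipose and 417 on mix 4, 56.9 and 62.3 on mix 1 and mix 2, and 25.1 on liver. The inhibitor TIMP2, which also helps to activate MMP2, gave 5493 on adipose, 815 on liver and 1214, 1840, 2630 and 1968 on the mixes (1.57, SE 0.46, adjusted p = 0.472). TIMP3, an inhibitor that stays bound to the matrix, was the most even of all 44 genes over the mixes, which lay within 1.16-fold of each other (2157 ± 148, mean ± SD, n = 4). It gave 3704 on adipose and 2555 on liver, both above all 4 mixes.

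Among proteins of the fibroblast itself VIM, the vimentin of intermediate filaments, gave 12907 on adipose, 8043 on mix 3, 5111, 2678 and 1842 on mix 4, 1 and 2, and 297 on liver (1.77, SE 0.81, adjusted p = 0.756). The receptor PDGFRB of mural cells and fibroblasts gave 1250 on adipose against 449 to 630 on the mixes (1.20, SE 0.38, adjusted p = 0.523). The related receptor PDGFRA was at nearly the same level on adipose and mix 3 (247 and 250), with 109 to 165 on the other mixes. THY1, a surface protein of fibroblasts and of neurons, was brightest on mix 4 at 2434, against 832 on adipose and 138 to 584 on the other mixes. Mix 4 was also the array of the 5 neuron markers, which summed to 21117 there and to at most 304 elsewhere, and of the 5 skeletal muscle markers measured, which summed to 34098. The part of nerve or muscle in the THY1 value was not tested.

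The cartilage genes separated mix 3 from every other array. Of the 9 measured, 8 were brightest on mix 3, and 7 of these by at least 4-fold over each other array. Over all genes tested, 0.525% met that rule on mix 3. LECT1, or chondromodulin, which keeps vessels out of cartilage, gave 9153 on mix 3, 67.2 on mix 4, 12.6 and 16 on mix 1 and mix 2, 3.3 on adipose and 2.4 on liver. MATN1, the matrilin known as cartilage matrix protein, gave 5648 on mix 3, 15, 11.8 and 17.1 on mix 1, 2 and 4, 24.8 on adipose and 9.5 on liver. Its other probe set gave 5613 and at most 40.5. MATN1 and EPYC exceeded the filter of 44.1 on mix 3 alone, so they were bound to differ there.

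ACAN, the aggrecan core protein, gave 3888 on mix 3, 113 on mix 4, 82.8 on adipose, 48.7 and 24.3 on mix 1 and mix 2, and 21.1 on liver. HAPLN1, the link protein that fixes aggrecan to hyaluronan, gave 2255 on mix 3, 176 on mix 4, 48.5 and 49.6 on mix 1 and mix 2, 18.8 on adipose and 6.8 on liver. Adipose and liver were thus below all 4 mixes. HAPLN1 lies close to VCAN in the genome, yet VCAN was at 241 on adipose and spanned 97.1 to 339 over the mixes, against 48.5 to 2255 for HAPLN1. MATN3 gave 5351 on mix 3, 532 on mix 4, 269 on mix 2, 4.1 on mix 1, 56.2 on adipose and 26 on liver. MATN4 gave 475 on mix 3, 93.4 on mix 4, 28.2 and 10.2 on mix 1 and mix 2, 37.2 on adipose and 2.5 on liver. EPYC, given above with its neighbours, had 8 on adipose, 0.9 on liver, and 4, 0.7, 198 and 18.2 on the mixes.

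MATN2 and COMP broke the pattern. MATN2, a matrilin found in many loose connective tissues, was brightest on adipose at 404, with 129, 71, 100 and 76.3 on the mixes and 1.6 on liver (1.99, SE 0.44, adjusted p = 0.359). All 3 of its other probe sets had adipose as the brightest array, at differences of 1.88 to 2.35. COMP, a pentameric protein of cartilage and tendon, gave 6104 on mix 3 but also 3871 on adipose, 3667 on mix 1 and 1816 on mix 4, with 269 on mix 2 and 30.5 on liver. One of its other tested probe sets had adipose as the brightest array (610 against 454 on mix 3). For the remaining 7 cartilage genes the adipose difference from the mixes was negative, from -0.74 for MATN4 and EPYC to -3.23 for LECT1, with SEs of 1.59 to 3.30. All 7 differences depend on mix 3, though not to the same degree. Without it they were 0.11 for MATN4, 0.12 for EPYC, 0.46 for MATN1 and 0.53 for ACAN, a change of sign. The other differences stayed negative without mix 3, at -1.26 for LECT1, -1.50 for HAPLN1 (-2.66 with it) and -0.995 for MATN3 (-2.32 with it).

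Mix 3 and mix 4 both carried bone markers, and by median they differed more in the cartilage genes than in the bone markers, with overlapping ranges and no test. All 7 bone markers were brightest on mix 3, and within each gene mix 3 stood 1.71- to 5.14-fold above mix 4, with a median of 2.41-fold. IBSP, the bone sialoprotein, gave 4071 and 1804 on these mixes and at most 12.9 elsewhere, and BGLAP, or osteocalcin, gave 6887 and 3483. Other bone markers were less confined to these mixes. ALPL gave 150 on mix 2 and 63.7 on mix 4, SPP1 gave 5325 on mix 2 and 6975 on mix 4, and SOST gave 405 on adipose. For the 9 cartilage genes the median was 9.84-fold, and the lowest was 1.27-fold for MATN2. MATN1 and EPYC were under the filter on mix 4, so their ratio has no firm size. Over all genes tested mix 3 stood at a median of 0.802 times mix 4. COL10A1, the collagen of hypertrophic cartilage next to forming bone, was 3.26-fold brighter on mix 3 than on mix 4, within the range of the bone markers, while the hyaline cartilage collagen COL2A1 was 72.3-fold brighter. Both belong to a list of 14 further cartilage genes, whose median was 5.45-fold. Its genes ranged from 0.402-fold (CRTAC1) and 0.947-fold (CILP) to 74.5-fold (CYTL1). The 3 tendon markers summed to 714 on mix 3 and 1081 on mix 4, most of it from TNMD (561 and 911), a membrane protein of tendon cells. The labels do not name the tissues of these mixes.

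**Figure D4:**
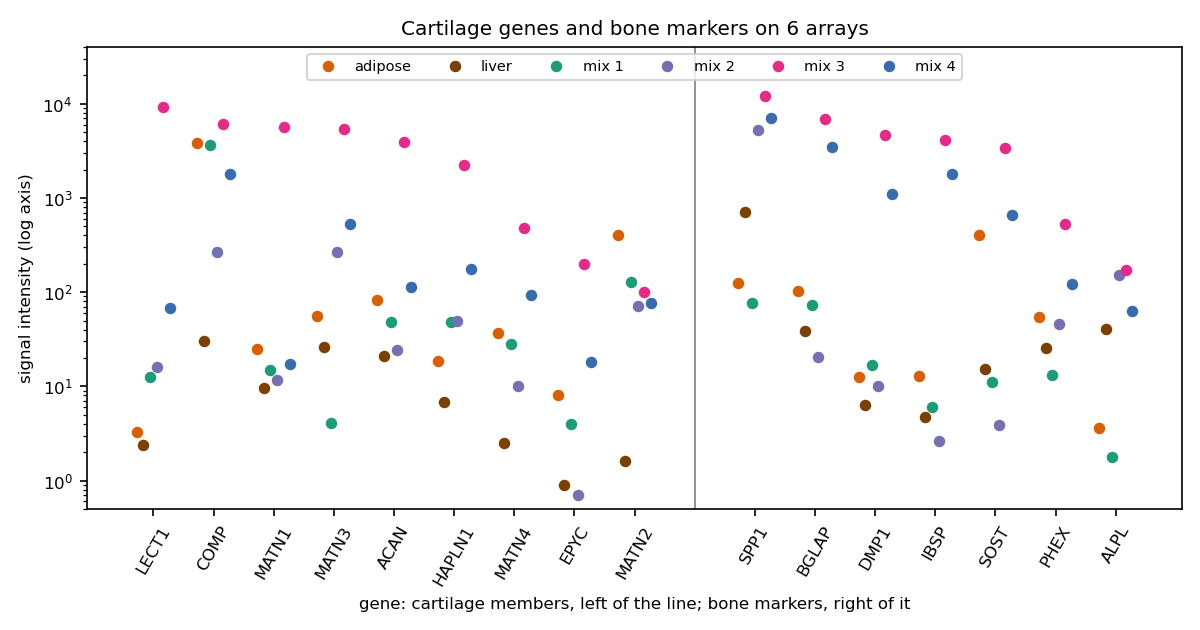
Signal intensity on a log axis of the 9 cartilage genes (left) and the 7 bone markers (right), 1 point per array. LECT1 and MATN1 reach 9153 and 5648 on mix 3 and at most 67.2 and 24.8 elsewhere, whereas the bone markers BGLAP and IBSP are also high on mix 4 (3483 and 1804), and MATN2 is brightest on adipose (404).

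The wider lists of matrix genes, which hold none of the 44, had 62 tested genes, of which adipose exceeded all 4 mixes in 20 and fell short of all 4 in 12 (24.9% and 17% over all genes). Of 9 further elastic fibre genes 3 lay above and 2 below, with a median of -0.08. FBLN2, a fibulin of elastic fibres and vessel walls, stood at 2498 against 171 to 469 (3.16), and EMILIN2, an elastin microfibril glycoprotein, at 951 against 144 to 178 (2.46). LTBP1, which stores TGF-beta on microfibrils, was below all 4 mixes at 545 against 816 to 1240. Of 5 further leucine-rich genes 4 lay above, led by OPTC (3.37) and PODN (3.09), and of 10 basement membrane genes 6 lay above, led by COL4A1 (1.91) and LAMA4 (1.74). Of 14 proteinase and inhibitor genes 5 lay above and 3 below. The procollagen peptidase ADAMTS2 gave 380 on adipose against 8.8 to 55.3 (3.22), whereas MMP9, made by osteoclasts and white cells, gave 2.8 against 39 to 4650 (-4.89). Of 10 adhesive genes 2 lay above, led by CYR61 (2.45), and 1 below, SPOCK1, a secreted proteoglycan (34.3 against at least 36.9, -1.29). SPP1, or osteopontin, lay within the wide range of the mixes (125 against 77.4 to 11936).

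Of 14 further cartilage genes 6 were below all 4 mixes on adipose and 0 above (17% and 24.9% over all genes tested), with a median of -2.09. Among them 12 were brightest on mix 3, 7 of them by at least 4-fold. They included COL2A1 (13541 on mix 3 and at most 174 elsewhere), CYTL1, a secreted protein of chondrocytes (4554 and at most 48.3), and SNORC, a chondroitin sulfate proteoglycan of cartilage (472 and at most 38.9). SOX9, the regulator of chondrocyte fate, differed less: 531 on mix 3, 350 on mix 4, 292 on mix 2, 111 on mix 1, 106 on liver and 14.6 on adipose.

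Liver was the faintest array for 36 of the 44 genes (57.6% of all genes tested). The same 36 lay below all 4 mixes there, against 60.2% of all genes tested. The median difference was -2.17, against -0.75 over all genes. With quantile scaling, 27 of the 44 lay below all mixes against 28.1% of all genes, with medians of -1.56 and -0.09. Of the 44 genes 24 were at or under the filter on liver and 13 under the pseudocount, so their differences have no firm size. That of MXRA5, at 2.8 on liver, ranged from -7.12 with a pseudocount of 1 to -3.58 with the floor, and that of FMOD, at 8, from -6.55 to -4.24 over the pseudocounts. EFEMP1, at 29.7 on liver against 1370 to 2792 on the mixes, came closest to the threshold by limma (-5.37, SE 0.48, adjusted p = 0.0551). It passed with the pooled median as pseudocount (0.0383), with a floor at that median (0.0408) and with all probe sets of a gene averaged (0.0386), and its adjusted p ranged up to 0.207 (without mix 2). VIM (-3.61), SPARC (-2.55) and MMP2 (-2.93) were also below all 4 mixes on liver.

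A few genes lay near or above the mixes on liver, or close to the median of all genes there. TIMP3 was the only one of the 44 above all 4 mixes there (2555 against 1990 to 2306, 8.15% over all genes tested). FN1, which hepatocytes release as plasma fibronectin, gave 6101 on liver, within the mixes (0.11, SE 0.68, but -0.24 without mix 2). FBLN1, also found in plasma, gave 666 on liver, above 3 of the 4 mixes (0.24, SE 0.72, but 0.63 without mix 1). Its other tested probe set gave a difference of 1.15. ELN (-0.69), PDGFRB (-0.65), FBN1 (-0.87), NID2 (-0.95) and DCN (-0.96) lay below all 4 mixes on liver, close to the median of all genes. NID1 (-0.24) and FBLN5 (-0.23) lay above that median. FBN1 was under the filter on liver (21.4) and on mix 1 and mix 2 (38.1 and 36.2), so its difference has no firm size. The sign of ELN, PDGFRB, NID1 and FBLN5 turned with quantile scaling.

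**Figure D5:**
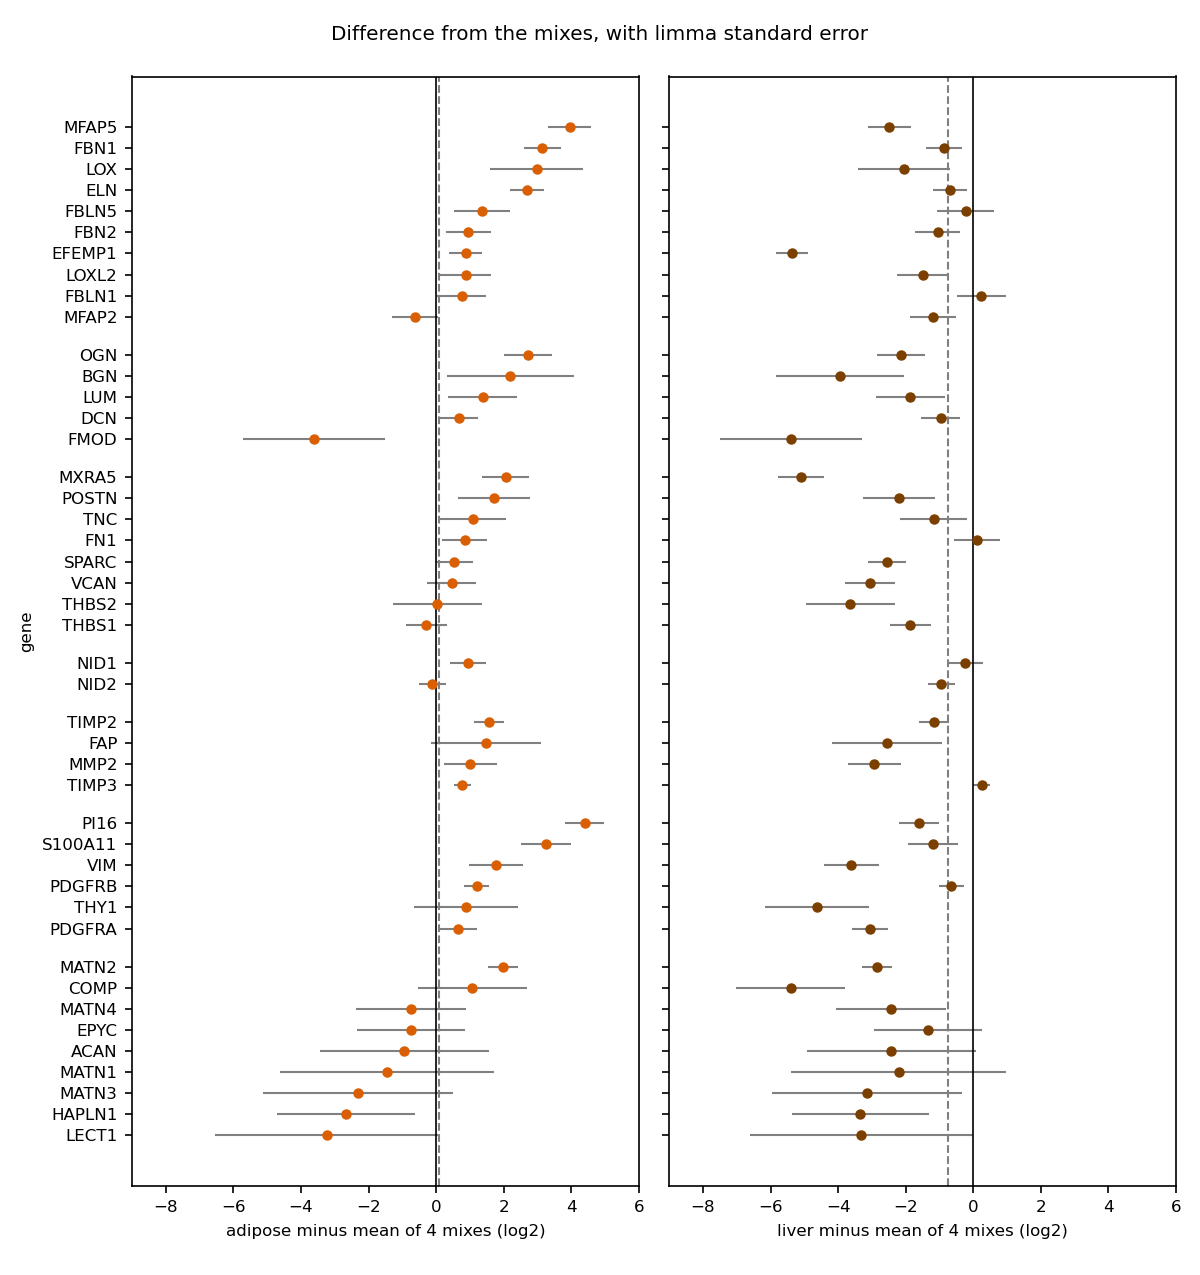
Difference of adipose (left) and of liver (right) from the mean of the 4 mixes for each of the 44 genes, on the log2(signal + 13) scale, with bars for the standard error from limma, which reflects the spread among the mixes. The dashed line is the median of all probe sets tested (0.08 and -0.75). PI16 (4.39) and MFAP5 (3.95) stand highest on adipose, and on liver COMP, FMOD, EFEMP1 and MXRA5 lie below -5, all 4 with liver signals under 44.1.

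Set directly against each other, with 1 array each and no test, all 44 genes were brighter on adipose than on liver. So were 9058 of all 11626 genes tested. The difference was at least 4-fold for 26 of the 44, against 11.7% of all genes tested. The 6 adipose-high genes are in this count, and in that of the 44, by their definition. Of the 29 genes outside cartilage that are not adipose-high, 18 reached 4-fold. The count of 26 became 23 with quantile, 22 with trimmed-mean and 24 with spike-in scaling. None of the 44 was at least 4-fold brighter on liver (3.84% of all genes). The median difference was 2.91, against 0.73 over all genes. It was 2.73 for the 29 genes outside cartilage that are not adipose-high. Of the 44 genes 24 had a liver signal at or under the filter of 44.1, so the size of their difference depends on the pseudocount and they were not ranked. Among these MFAP5 gave 4606 on adipose and 40.3 on liver, COMP 3871 and 30.5, and EFEMP1 3227 and 29.7. LECT1 was faint on both arrays (3.3 and 2.4). FBLN1 (0.51), TIMP3 (0.53) and FN1 (0.73) were bright on both and differed by under 2-fold.

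Other probe sets of the same gene are a further reading of the same RNA. For 21 of the 44 genes there were 37 further probe sets above the filter. Of these 34 had the same sign of the adipose difference as the probe set used, and 31 had the same brightest array. The 3 that differed in sign were 1 of BGN and both of THBS1 (0.14 and 0.40, against -0.29). PI16 kept its direction with a smaller difference of 1.15.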

How the data were processed

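RNA of 6 samples was extracted with Trizol and hybridised as biotin-labelled cRNA, per the labels' protocols. MAS5 is named in the submitters' processing notes, without a version or a scaling target. The deposited values are signal intensity on a linear scale, 1 column per array. The description field names adipose tissue for all 6 samples, so groups were taken from the titles. Of 38535 deposited probe sets 96 controls were left out. The members, lists and groupings were chosen with earlier results of these data known. Signals were turned into log2(value + 13), 13 being the rounded 25th percentile, and a probe set entered the tests if any array exceeded 44.1, the median of all values (25958 did). No scaling was applied. Genes were named from the platform annotation: 27168 probe sets have 1 symbol, 177 several and 11094 no listed gene. The symbols of all 44 genes matched the RefSeq table by gene number. Neighbours come from its gene order.

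The test was two-sided, from limma 3.58.1 under R 4.3.3. It fits a mean for each group, uses eBayes with an intensity trend, and adjusts by Benjamini-Hochberg over every probe set tested. The residual spread is that of the 4 mixes (3 degrees of freedom, 2.59 prior). The fit was also run on simulated data drawn around the mean and spread of the mixes. That run treats the mixes as true replicates, so it does not test the fit for these samples. Adipose against liver and the brightest array were compared by size, without a test. Genes given with all values are those at least 4-fold above each other array, the cartilage genes, and up to 3 per role by size of the adipose difference. Of the wider lists up to 3 genes each were to be named by the same size. Further members, further genes of those lists, the bone, tendon and neuron markers and the neighbours were picked after their values were seen. No sequences were used here. Alternatives covered pseudocount, floor, filter, scaling, probe-set averaging, trend and leaving out each mix. The number of arrays limits precision.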

Additional observations from a re-analysis of the deposited data

Results flagged for a closer look

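In 4 of the 44 genes (9.09%) 1 mix stood apart from the other 3 by Dixon's ratio on the log2 scale (past its 95% critical value). The same was seen in 6.8% of all genes tested (790 of 11626), a share near that of the 44. Chance flags about 1 in 20 among like samples, which the mixes are not. MATN1 gave 5648 on mix 3 against 11.8 to 17.1 on the others. THBS1 gave 225 on mix 3 against 84.8 to 91.8. OGN was low on mix 3, at 113 against 347 to 361. ELN was low on mix 4, at 49.1 against 96.5 to 106, a level close to the 47.9 on liver.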

How the results depend on the processing

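No paired analysis was possible because adipose and liver have 1 array each. Adipose lay below all mixes in 5 genes instead of 3 with trimmed-mean and with spike-in scaling, and in 3 to 5 when 1 mix was left out. It lay above all mixes in 22 to 31 genes when 1 mix was left out, the most without mix 3. Liver lay above all mixes in 1 to 2 genes when 1 mix was left out. Limma calls over all probe sets varied most. On adipose the count was 0, except for 671 with the floor at the pooled median, none of them among the 44 genes. On liver it was 13 and became 0 with a pseudocount of 1, 84 with the pooled median as pseudocount, 204 with the floor, 27 without the filter, 52 with quantile scaling, 77 with trimmed-mean scaling, 23 with probe sets averaged, 28 without the trend, and 0 without any 1 mix. Among the 44 genes, 1 was called on liver (EFEMP1) with the pooled median as pseudocount, with the floor and with probe sets averaged.

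The adipose difference kept its sign for 38 of the 44 genes under the alternatives run and the liver difference for 39. THBS2 turned on adipose to -0.034 (pooled median as pseudocount), -0.058 (quantile), -0.16 (trimmed mean) and -0.13 (spike-ins), and THBS1 to 0.083 with probe sets averaged. Leaving out 1 mix gave adipose ranges of -0.46 to 0.73 for THBS2, -0.42 to 0.011 for THBS1, -1.36 to 0.11 for MATN4, -1.20 to 0.12 for EPYC, -1.70 to 0.53 for ACAN and -2.16 to 0.46 for MATN1. THBS2 turned without mix 1 (-0.22) and without mix 2, the others without mix 3. On liver the ranges were -0.24 to 0.40 for FN1, which turned without mix 2, and -0.60 to 0.030 for FBLN5, which turned without mix 1 (0.023) and mix 2. FN1 also turned to -0.32 with probe sets averaged. With quantile scaling NID1 turned to 0.037, ELN to 0.11, FBLN5 to 0.60 and PDGFRB to 0.0072, and with trimmed-mean scaling NID1 to 0.36 and FBLN5 to 0.28. The cause of these changes was not tested. With probe sets averaged 43 of the 44 genes passed the filter. Signals under about 13 have little weight on this scale, which limits the differences of 13 of the 44 genes on liver, such as MXRA5, FMOD and BGN, and of LECT1 and EPYC on adipose.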
